A study of Mus musculus with 3 samples.

Results

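Cd4 conventional T cells are the Cd4-bearing T cells that lack the regulatory factor Foxp3, and 259 barcodes of 16838 that passed the filters on quality were assigned to them. They were chosen by their raw UMI counts (unique molecular identifiers, 1 per captured transcript). A barcode entered with at least 500 detected genes and at most 15% mitochondrial UMIs, at least 2 UMIs summed over Cd3e, Cd3d, Cd3g, Trbc1 and Trbc2, and at least 1 UMI of Cd4. It had no UMI of Foxp3, of Cd8a or Cd8b1, of the B cell genes Cd79a and Ms4a1, or of Siglech, a plasmacytoid dendritic cell gene. Levels of these genes in the cells are therefore a description of the choice. The members numbered 35 in the CL library, 110 in the cold library and 114 in the saline library.

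The cells came from the stromal vascular fraction of inguinal white fat, which is what remains of the tissue after intact adipocytes are removed, of C57BL/6 mice. The CL library was from mice given CL 316,243, which activates the β3-adrenergic receptor, by intraperitoneal injection at 1 mg/kg for 3 days. The cold library was from mice exposed to 4 C for 3 days, and the saline library was from controls. Each group is 1 library of 10x Chromium 3' v3 chemistry, so no spread between animals was available and no p-value is given between treatments. Neither the labels nor the file headers state how many animals went into a library, or how old they were.

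Cd4 T cells recognise peptides on MHC class II through the T cell receptor and its CD3 chains, and take on helper programmes such as Th1, Th2, Th17 and follicular helper. Naive and central memory cells carry homing and quiescence genes (Ccr7, Klf2), which effector cells give up as they gain adhesion, cytokine and cytoskeletal genes. In white fat, Cd4 T cells are a resident part of the immune compartment. Whether the members here resided in the fat or came from a lymph node was not tested. β3-adrenergic stimulation and cold are known mainly for lipolysis and thermogenic remodelling of the tissue.

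The members held 117769 UMIs in CL, 558343 in cold and 442759 in saline, with medians of 2035, 3469.5 and 2433 UMIs per cell in CL, cold and saline. Library totals over all barcodes were 29323106 UMIs in CL, 19899223 in cold and 25875379 in saline. Pairs of libraries shared between 9 and 14 barcodes, and no barcode was a member in 2 libraries. RNA of other cell types was present among the members and was unevenly spread. The 9 stromal markers summed to 238 CPM (counts per 1000000 UMIs of the members) in CL, 75.2 CPM in cold and 3695 CPM in saline, where 3 cells held 1360 of 1636 UMIs. The 12 macrophage and monocyte markers summed to 2726 CPM in CL, 364 CPM in cold and 1052 CPM in saline, with 11, 11 and 12 markers detected in CL, cold and saline. The 11 dendritic cell markers summed to 2564 CPM in CL, 369 CPM in cold and 574 CPM in saline, and 3 cells held 255 of the 302 UMIs in CL. The 5 erythroid markers summed to 374 CPM in CL, 1073 CPM in cold and 4510 CPM in saline, where 3 cells held 1737 of 1997 UMIs. Barcodes with 3 or more UMIs of other lineages numbered 5 in CL, 7 in cold and 11 in saline. Values without these barcodes stand beside several results below.

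The gate stood on few molecules. Exactly 1 Cd4 UMI was seen in 25 of 35 members in CL, 62 of 110 in cold and 69 of 114 in saline, and exactly 2 T cell UMIs in 7, 2 and 5 members in CL, cold and saline. Just outside, 3 barcodes in each library met every other criterion with a T cell sum of 1. A further 75 barcodes in CL, 123 in cold and 214 in saline passed the T cell sum with no UMI of Cd4, Cd8 or Foxp3. A regulatory or Cd8 cell whose Foxp3 or Cd8 transcripts were missed would enter or leave the groups by the same route.

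The members made up 23.6% of the T cell gate in CL (35 of 148, exact Clopper-Pearson 95% interval 17.1% to 31.3%), 33.5% in cold (110 of 328, 28.4% to 38.9%) and 23.6% in saline (114 of 484, 19.8% to 27.6%). All intervals here cover counting error only. The cold share was the higher of the 3, and so was the depth of the cold cells. When each barcode was first thinned to 1000 UMIs and the gate genes were read on what was left, the shares were 18.3% in CL (17 of 93), 13.7% in cold (35 of 255) and 12.8% in saline (44 of 343), with overlapping intervals. Of all filtered barcodes, members were 0.522% in CL, 2.85% in cold and 1.82% in saline, and 0.257% in CL, 0.912% in cold and 0.708% in saline after the same thinning. In these libraries the myeloid gate held 4323 barcodes in CL, 540 in cold and 1467 in saline, so a lower share of all barcodes in CL and fewer T cells cannot be told apart. The B cell gate held 222 of 6705 filtered barcodes in CL, 1429 of 3862 in cold and 1508 of 6271 in saline. Markers of lymph node stroma and follicle were seen in 688 filtered barcodes in CL, 1160 in cold and 1531 in saline. A lymph node source of members was not tested, for these shares or for Ccr7, Klf2, Tcf7, Lef1 and Cxcr5 below.

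**Figure D1:**
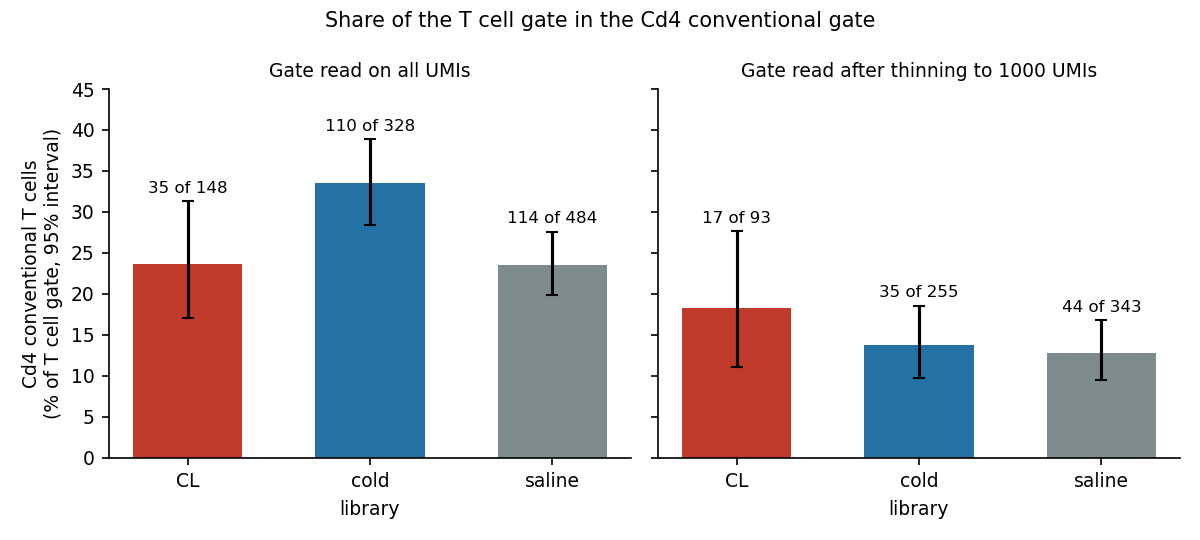
The bars give Cd4 conventional T cells as a percentage of the T cell gate in the CL, cold and saline libraries, with exact 95% intervals and the counts above. On all UMIs the cold bar is highest at 33.5%; after thinning each barcode to 1000 UMIs the 3 shares lie between 12.8% and 18.3%.

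Cd4, which the gate required, stood at 450 CPM among members in CL, 346 CPM in cold and 400 CPM in saline, against 5.98 CPM, 2.24 CPM and 3.14 CPM in the B cell gate of the same libraries. Genes that the gate did not use also went with T cells. Of Trac, Tcf7 and Lef1, only Tcf7 was higher than in regulatory T cells at an adjusted p under 0.05 (edgeR test below). None of the 3 was higher than in Cd8 T cells by that test. Trac, the T cell receptor alpha constant chain, was detected in 20 of 35 members in CL, 95 of 110 in cold and 78 of 114 in saline. Tcf7, a factor of naive and memory T cells, was seen after thinning to 1000 UMIs in 14.3% of members in CL, 19.1% in cold and 25.4% in saline, against 0%, 0% and 0.133% of the B cell gate in the same libraries. Lef1, its partner, was seen in 5.71% of members in CL, 3.64% in cold and 14.9% in saline after thinning, against 0%, 0.0701% and 0.333% of the B cell gate. Unthinned, the Lef1 share was 11.4% in CL, 30.9% in cold and 34.2% in saline, so the cold value moves strongly with depth. Trdc, the gamma delta receptor constant chain, was at 0 in every library.

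Several cytokines and factors of helper lineages had few UMIs or none, while other genes of the same lists had more. Ifng, the Th1 cytokine, was seen in 8 of 35 members in CL, 17 of 110 in cold and 6 of 114 in saline. The 12 follicular helper genes together stood at 1350 CPM in CL, 2063 CPM in cold and 1579 CPM in saline. Il22, a Th17 cytokine, and Il5, a Th2 cytokine, were at 0 in all 3 libraries. Il17a had 5 UMIs in saline and none in CL or cold, and Il4 and Il13 had 1 UMI each, in saline. Gata3, the Th2 factor that other T cells also use, was at 76.4 CPM in CL, 106 CPM in cold and 140 CPM in saline. Tbx21, the Th1 factor, had 5 UMIs in CL, 5 in cold and 4 in saline. Cxcr5, the follicle-homing receptor, had 27 UMIs in cold and 6 in saline with none in CL, and Il21 had 8 in cold and 2 in saline with none in CL. Activation genes were more frequent: Icos, a costimulatory receptor, was seen after thinning in 14 of 35 members in CL, 55 of 110 in cold and 33 of 114 in saline, against at most 0.21% of the B cell gate in any library. Mki67 or Top2a, genes of dividing cells, were seen in 14.3% of members in CL, 17.3% in cold and 17.5% in saline after thinning, against 1.84%, 4.27% and 1.93% of the B cell gate.

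Some members carried genes typical of regulatory cells in spite of the Foxp3 gate. Ikzf2, which encodes Helios, was seen after thinning in 22.9% of members in CL, 31.8% in cold and 34.2% in saline. In the Foxp3 gate the share was 63.2% in CL, 75.0% in cold and 74.7% in saline, and in the B cell gate it was at most 0.461%. Ctla4, an inhibitory receptor, was seen in 25.7% of members in CL, 31.8% in cold and 28.9% in saline, against 0%, 0.42% and 1.06% of the B cell gate in CL, cold and saline.

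Against Foxp3 regulatory T cells of the same libraries (19 in CL, 56 in cold, 76 in saline), members had more Tcf7, Themis and Tnfsf8 and less Ikzf2, Il1rl1, Tnfrsf9, Il2ra and Ctla4. By edgeR's quasi-likelihood test with the library as a block and Benjamini-Hochberg adjustment, 20 genes not used by the gates were higher (0.5% of 4002 tested) and 29 were lower (0.725%). Tcf7 was at 102 CPM in CL, 242 CPM in cold and 282 CPM in saline among members, against 30.8 CPM, 54.4 CPM and 58.0 CPM in regulatory cells of CL, cold and saline. It was higher in 3 of 3 libraries (log2 fold 2.21, SE 0.25, adjusted p = 0.000354). Themis, which tunes T cell receptor signalling, was at 76.4 CPM in CL, 106 CPM in cold and 81.3 CPM in saline among members, against no UMI in CL and 2 UMIs each in cold and saline in regulatory cells (log2 fold 3.94, SE 0.47, adjusted p = 0.000432, 3 of 3 libraries). The groups did not overlap for either gene, but both were picked by their small adjusted p, so this is not separate support.

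Of 6 cytokine genes tested, 3 were higher by edgeR: Tnfsf8 (CD30 ligand, log2 fold 3.30, SE 0.49, adjusted p = 0.00225), Tnfsf11 (RANK ligand, 2.49) and Ifng (interferon gamma, 3.29, SE 0.71, adjusted p = 0.0361). In CL, Tnfsf8 had 2 UMIs among members and 1 in regulatory cells. By DESeq2's Wald test none of the 3 passed, at adjusted p = 0.9998 for Tnfsf8, 0.337 for Tnfsf11 and 0.991 for Ifng. Ifng stood at 161 CPM in CL, 222 CPM in cold and 38.4 CPM in saline among members, and at 0, 0 and 32.6 CPM in regulatory cells, so the saline values lay close together. Its log2 fold was -0.16 without the cold library. Of the Th1 list, Cxcr3, a chemokine receptor of Th1 cells, was also higher by edgeR (log2 fold 1.74, adjusted p = 0.0361), making 2 of 5 tested. By DESeq2's Wald test its adjusted p was 0.887. The inducible heat shock genes Hspa1a and Hspa1b were higher by 1.47 and 1.37 on the log2 scale in 3 of 3 libraries. In CL, Hspa1a had 8 UMIs among members and 4 in regulatory cells. By DESeq2's Wald test the adjusted p was 0.161 for each gene. Against Cd8 T cells the direction differed: of 10 heat shock genes tested by edgeR, Hspa1a was the 1 called lower among members, and 0 were higher.

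Of the regulatory T cell list, 9 of 14 tested genes were lower among members and none was higher. The median log2 fold was -1.22 over that list and -0.0031 over all genes fitted; the list was drawn up with these data known, and Foxp3 itself set the gate. Ikzf2 was at 399 CPM in CL, 505 CPM in cold and 644 CPM in saline among members, against 1179 CPM, 1443 CPM and 1527 CPM in regulatory cells (log2 fold -1.37, SE 0.14, adjusted p = 0.000113, lower in 3 of 3 libraries). Il1rl1, the receptor for interleukin 33 that marks tissue regulatory cells, had a log2 fold of -3.02 (SE 0.34, adjusted p = 0.000354). Ctla4 had a log2 fold of -1.12 and Il2ra, the high-affinity interleukin 2 receptor chain, of -1.55. Without the cold library no call was made in either direction by edgeR, with 176 genes at an unadjusted p under 0.05, while the log2 folds were then 2.23 for Tcf7, 3.88 for Themis, -1.32 for Ikzf2 and -3.37 for Il1rl1. Without the CL library 71 genes were higher and 91 lower, and without the saline library 6 and 12. DESeq2 called 4 higher and 12 lower.

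Against Cd8 T cells (17 in CL, 31 in cold, 68 in saline), members had more Maf, Icos, Tnfrsf4 and Rora and less of the cytotoxic genes. By the same edgeR test, 38 genes were higher (1.3% of 2921 tested) and 45 lower (1.54%). Maf, a factor of helper and interleukin 10 producing cells, was at 297 CPM in CL, 322 CPM in cold and 364 CPM in saline among members, against 80.5 CPM, 38.1 CPM and 72.1 CPM in Cd8 cells (log2 fold 2.27, SE 0.27, adjusted p = 4.97e-06, higher in 3 of 3 libraries). Icos (1.31), Tnfrsf4 (OX40; 1.63), Cd5 (1.25) and Tox (1.32) were the 4 of 12 activation genes that were higher, and 4 of 5 follicular helper genes were (Icos, Maf, Sh2d1a, Izumo1r). Gata3 was higher as well (1.61, adjusted p = 0.0245).

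Of 9 cytotoxic genes tested, 7 were lower among members and none higher. Nkg7, a granule protein, was at 127 CPM in CL, 222 CPM in cold and 33.9 CPM in saline among members, against 523 CPM, 628 CPM and 304 CPM in Cd8 cells (log2 fold -2.27, SE 0.26, adjusted p = 4.02e-06). Ccl5, a chemokine, had a log2 fold of -3.92, and was lower in 3 of 3 libraries. Eomes, a factor of cytotoxic cells, had no UMI among members in CL and saline and 7.16 CPM in cold, against 134 CPM, 63.4 CPM and 87.3 CPM in Cd8 cells of CL, cold and saline. Of 13 naive and central memory genes tested, 6 were lower and none higher, among them Satb1 (log2 fold -1.65, adjusted p = 0.00027) and Ccr7 (-1.03, adjusted p = 0.0141). Ly6c2, a marker of memory Cd8 cells, was lower by the smallest adjusted p (log2 fold -3.13, adjusted p = 5.29e-08). Counts again moved with single libraries: 4 higher and 9 lower without cold, 91 and 123 without CL, 9 and 16 without saline, and 7 and 12 by DESeq2.

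**Figure D2:**
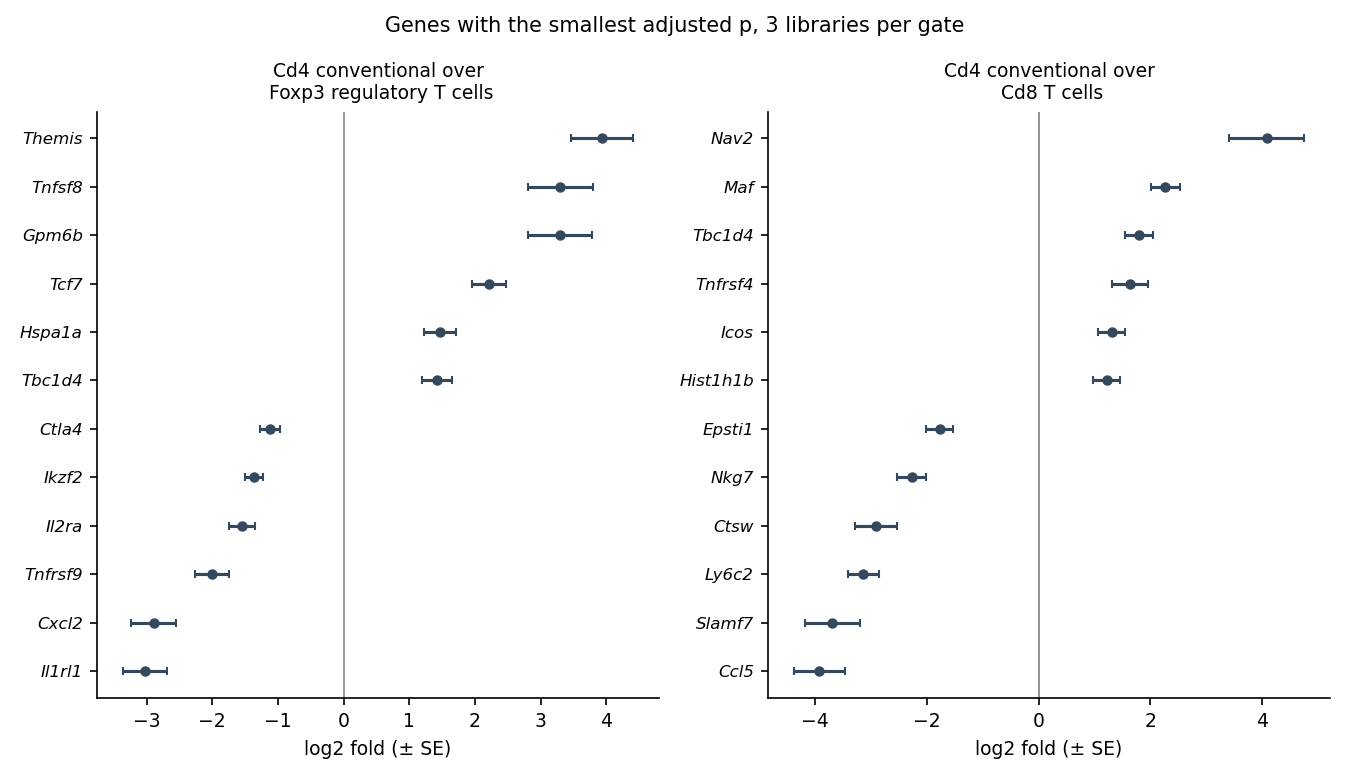
Points give log2 fold with standard error (edgeR, 3 libraries, library as a block) for the 6 higher and 6 lower genes with the smallest adjusted p past 2-fold, in Cd4 conventional over Foxp3 regulatory T cells (left) and over Cd8 T cells (right). Tcf7 and Themis lie right of 0 on the left panel and Maf and Icos on the right panel; Ikzf2 lies left of 0 on the left panel and Nkg7 on the right panel.

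Members in the cold library had less Klf2, Satb1, Hspa1a and Hspa1b, and more of the Th1 genes Ifng, Cxcr3 and Stat4, than members in the saline library. T cell receptor signalling and glycolysis genes lay mostly above 0 on the log2 scale, but 0 of 12 and 0 of 8 tested passed 2-fold. Among 2745 genes with at least 30 UMIs in at least 10 cells of the higher library, 158 were higher by at least 2-fold (5.76%) and 66 lower (2.4%); with 1 minimum CPM applied in both directions, 118 were higher and 66 lower of 2386. The median log2 ratio was 0.06 over all 7546 measured genes (10 or more UMIs over both libraries) and 0.20 over the tested genes.

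Of 14 naive and central memory genes, 12 were below 0 with a median log2 ratio of -0.99, and 4 of 10 tested were lower by at least 2-fold. Klf2, a factor of quiescence and egress, was at 141 CPM in cold (79 UMIs in 40 cells) and 382 CPM in saline (169 UMIs in 52 cells), a log2 ratio of -1.43 (interval -1.84 to -1.04). Ccr7, the receptor that guides cells to lymph nodes, was at 147 CPM in cold and 323 CPM in saline (-1.14, interval -1.55 to -0.73), and the ratio was -0.89 without barcodes of other lineages. Satb1, a chromatin organiser, was at 77.0 CPM in cold and 233 CPM in saline (-1.59, interval -2.14 to -1.07), and at 0.22 when only cells with at most 5% mitochondrial UMIs were kept. Tcf7 was at 242 CPM in cold and 282 CPM in saline, with an interval of the log2 ratio from -0.58 to 0.14. Igfbp4, an insulin-like growth factor binding protein that naive T cells and stromal cells both make, was at 8.96 CPM in cold (3 cells) and 217 CPM in saline (27 cells), a log2 ratio of -4.60 (interval -6.25 to -3.33). The stromal sum was also higher in saline, and the Igfbp4 ratio was -4.00 without barcodes of other lineages. After thinning, Lef1 was seen in 4 of 110 members in cold and 17 of 114 in saline, with exact intervals of 1.00% to 9.05% in cold and 8.93% to 22.8% in saline that overlap slightly. Klf2 was lower in cold than in saline in the Cd8 gate (260 and 683 CPM in cold and saline) and the B cell gate (183 and 441 CPM) also.

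Of 17 effector and memory genes, 14 were above 0, with a median of 0.35. Of 8 Th1 genes, 6 were above 0 (median 1.06), and the 3 tested were all higher by at least 2-fold. These 3 reached the minimum of 30 UMIs only in cold, so being tested already favoured genes high there, and their count is not separate support. Ifng was at 222 CPM in cold and 38.4 CPM in saline (log2 ratio 2.53, interval 1.79 to 3.36), but 3 cells held 73 of its 124 UMIs in cold. Cxcr3 was at 98.5 CPM in cold (26 cells) and 33.9 CPM in saline (12 cells), a log2 ratio of 1.54. Stat4, which relays interleukin 12, was at 100 CPM in cold (37 cells) and 33.9 CPM in saline (11 cells), a log2 ratio of 1.57. Nkg7 was at 222 CPM in cold and 33.9 CPM in saline (2.71), again with 83 of 124 UMIs in 3 cells. Lag3, an inhibitory receptor, had 80 UMIs in cold, 63 of them in 3 cells, and 2 UMIs in saline (log2 ratio 4.99, interval 3.09 to 8.06). Of the 17 cold members with Ifng, 14 also had Nkg7, against 9 of the other 93, and the median depth was 6276 UMIs with Ifng and 3428 without. The Ifng share after thinning was 10.0% in cold and 4.39% in saline, with overlapping intervals.

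Some changes were spread over many cells. Smco4 was at 245 CPM in cold (70 cells) and 54.2 CPM in saline (18 cells), a log2 ratio of 2.18 (interval 1.54 to 2.87). Bcl2a1b, a survival gene of the Bcl2 family with near-identical copies, was at 516 CPM in cold (75 cells) and 151 CPM in saline (37 cells), a log2 ratio of 1.77. Tnfsf8 was at 374 CPM in cold (51 cells) and 117 CPM in saline (27 cells), a log2 ratio of 1.67. Of 12 T cell receptor signalling genes all were above 0 (median 0.50, against 0.20 over all tested genes). Trac itself, not in the gate, was at 593 CPM in cold and 393 CPM in saline (0.59). Glycolysis genes were above 0 in 11 of 13 (median 0.67), S phase genes in 17 of 19 (median 0.54) and follicular helper genes in 9 of 11 (median 0.60, Tox2 and Sh2d1a past 2-fold, Sh2d1a at -0.19 with at most 5% mitochondrial UMIs). The median was 0.01 for oxidative phosphorylation and -0.04 for the type I interferon response, of which Isg15 alone passed 2-fold (96.7 CPM in cold and 36.1 CPM in saline, log2 ratio 1.42, interval 0.59 to 2.33).

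Hspa1a, an inducible heat shock chaperone, was low in cold, at 84.2 CPM in cold (47 UMIs in 11 of 110 cells) and 628 CPM in saline (278 UMIs in 47 of 114 cells), a log2 ratio of -2.90 (interval -3.38 to -2.45). Hspa1b was at 84.2 CPM in cold and 468 CPM in saline (-2.47). Constitutive chaperones differed little: Hspa8 was at 2085 CPM in cold and 1994 CPM in saline. After thinning, Hspa1a was seen in 3.64% of members in cold and 30.7% in saline, against 5.96% and 7.98% of the B cell gate in cold and saline. Hspa1a was also lower in cold than in saline in regulatory cells (35.2 and 210 CPM in cold and saline) and Cd8 cells (247 and 660 CPM), while the stromal gate had 100 CPM in cold and 89.3 CPM in saline. Of 12 glucocorticoid response genes, 10 were below 0 (median -1.30); without barcodes of other lineages the median was -0.73, with 3 of 11 above 0. They included Tsc22d3 at 28.7 CPM in cold and 97.1 CPM in saline (-1.76). Txnip, a glucose-sensing arrestin, was at 35.8 CPM in cold and 131 CPM in saline (-1.87), and Klf6 at 165 CPM in cold and 452 CPM in saline (-1.46). Immediate early genes had a median of -0.29, which was 0.28 without barcodes carrying other lineages' RNA. Heat shock and immediate early genes are also known to respond to tissue dissociation, whose part in these values was not tested.

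**Figure D3:**
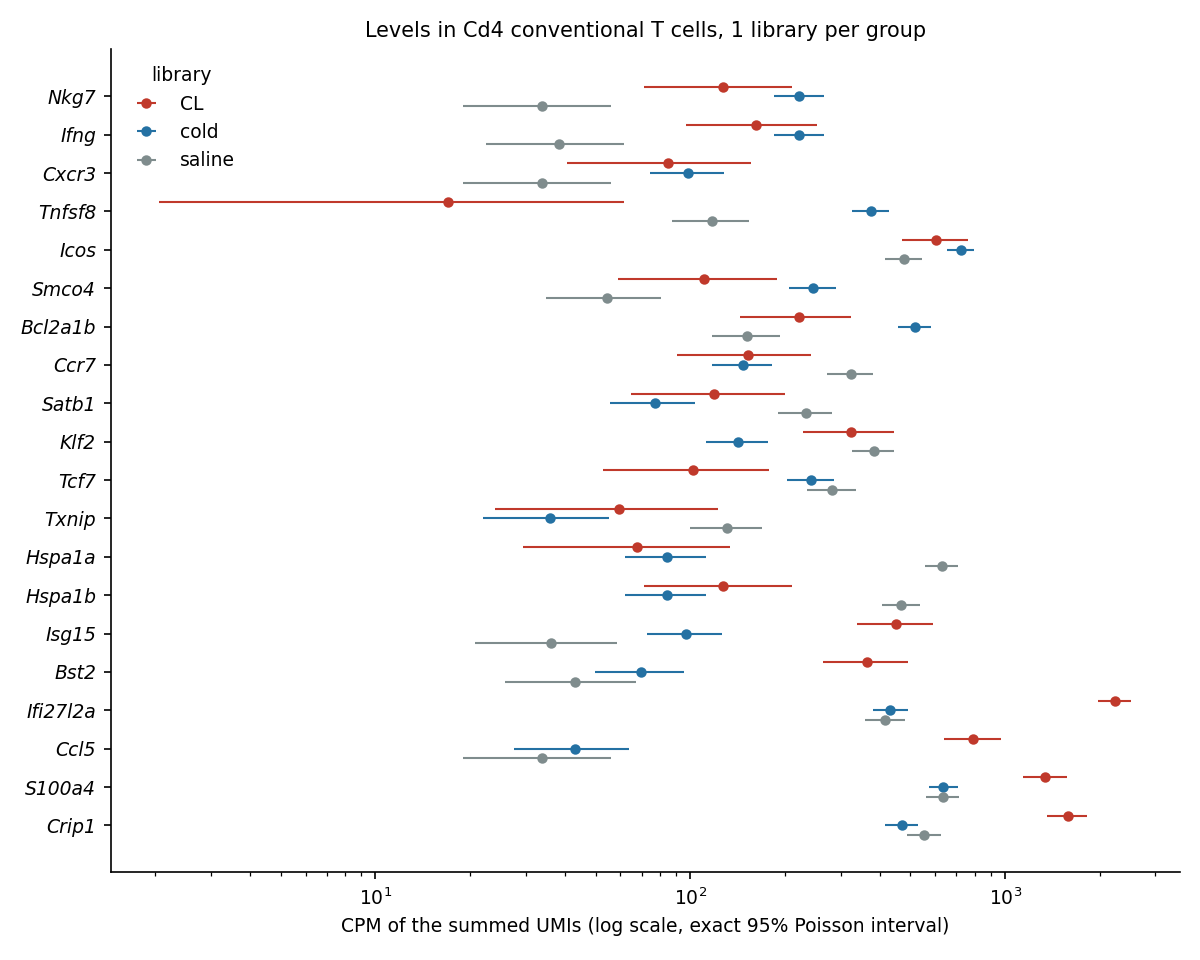
Points give CPM on a log axis with exact 95% Poisson intervals for 20 genes in Cd4 conventional T cells of the CL (top), cold (middle) and saline (bottom) libraries. Hspa1a stands at 67.9 CPM in CL, 84.2 CPM in cold and 628 CPM in saline, and Ifi27l2a at 2225 CPM in CL, 432 CPM in cold and 416 CPM in saline.

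Members in the CL library had more interferon-response genes, Ccl5 and Crip1 and less Hspa1a, Tcf7, Lef1 and Tnfsf8 than members in the saline library. Among 1334 tested genes 41 were higher by at least 2-fold (3.07%) and 142 lower (10.6%); the counting interval lay below 0 for 88 of the lower ones. CL has the fewest members, so a gene needs a higher CPM to be tested as higher in it: with 1 minimum CPM in both directions, 41 were higher and 14 lower of 495. The median log2 ratio was 0.00 over 6049 measured genes and -0.23 over the tested genes.

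All 14 measured members of the type I interferon list were above 0 (median 2.52), and the 3 that were tested, Isg15, Ifi27l2a and Bst2, were all past 2-fold. Isg15 and Bst2 reached the minimum of 30 UMIs only in CL. At their saline levels that minimum already put them past 2-fold, so the count of tested genes is not separate support. Ifi27l2a, an interferon-induced gene, was broadest: 2225 CPM in CL (29 of 35 cells) and 416 CPM in saline (59 of 114 cells), a log2 ratio of 2.42 (interval 2.14 to 2.70). Bst2, or tetherin, was at 365 CPM in CL (17 cells) and 42.9 CPM in saline (12 cells), a log2 ratio of 3.09. Isg15, a ubiquitin-like modifier, was at 450 CPM in CL and 36.1 CPM in saline (3.64), but 3 cells held 44 of its 53 UMIs in CL. Irf7, which drives interferon production, had 35 UMIs in CL, 29 of them in 3 cells, and 7 in saline (297 and 15.8 CPM in CL and saline). Ifit3, which binds viral RNA in the cytosol, had 16 UMIs in 6 CL members and none in cold or saline. With 3 counts in place of 0 it was 20.1-fold higher in CL than in saline, without counting error in CL. It was below the minimum of 30 UMIs in 10 cells and was not tested.

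Without barcodes holding 3 or more UMIs of other lineages the type I list's median was 1.28, with 8 of 9 members above 0. The log2 ratio was then 3.01 for Bst2 and 2.45 for Isg15, with Ifi27l2a between them. The interferon gamma list had 14 of 14 above 0 (median 1.28), and 11 of 12 (median 1.01) without those barcodes. Psmb8, an immunoproteasome subunit, was at 798 CPM in CL and 373 CPM in saline (1.10), and its log2 ratio was 0.65 without those barcodes.

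Interferon-responsive genes often carry the interferon-stimulated response element near their start, with the core GAAANNGAAA bound by ISGF3 and IRF factors. In RefSeq windows of 300 bases (250 before to 50 after the start, GRCm38.p6), the core, read on both strands with overlapping matches counted, was found in 10 of 15 windows of the type I list (66.7%) and in 943 of 27025 windows of all genes (3.49%). No match was found for Irf7, Isg20, Oasl2, Xaf1 or Ifi203, which says only that these letters are absent from those windows. Of the windows with a match, those of Ifi206 and Ifi213 belong to genes with no value in these matrices. The windows of 3 list genes are shown because their transcripts were among those higher in CL; capitals mark the core on either strand. They are Isg15 at chr4:156200769-156201068 (minus strand), Bst2 at chr8:71537423-71537722 (minus strand) and Ifit3 at chr19:34583279-34583578 (plus strand).
Isg15: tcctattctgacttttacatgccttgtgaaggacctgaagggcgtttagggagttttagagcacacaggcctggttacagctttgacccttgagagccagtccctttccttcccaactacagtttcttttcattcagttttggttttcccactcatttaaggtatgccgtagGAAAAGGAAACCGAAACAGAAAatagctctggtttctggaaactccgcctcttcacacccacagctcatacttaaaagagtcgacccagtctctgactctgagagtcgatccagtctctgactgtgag
Bst2: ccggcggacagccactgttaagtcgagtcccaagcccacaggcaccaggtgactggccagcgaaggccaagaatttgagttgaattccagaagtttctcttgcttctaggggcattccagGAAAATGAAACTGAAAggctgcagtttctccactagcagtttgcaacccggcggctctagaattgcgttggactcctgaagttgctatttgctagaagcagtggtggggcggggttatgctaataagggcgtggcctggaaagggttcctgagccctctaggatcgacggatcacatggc
Ifit3: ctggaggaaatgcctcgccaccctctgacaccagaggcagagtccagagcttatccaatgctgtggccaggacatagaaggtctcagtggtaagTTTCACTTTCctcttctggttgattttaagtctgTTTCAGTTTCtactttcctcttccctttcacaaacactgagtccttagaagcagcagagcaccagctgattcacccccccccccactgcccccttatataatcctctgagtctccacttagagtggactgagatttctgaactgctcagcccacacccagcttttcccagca
The Isg15 window held 3 overlapping matches and the Bst2 window 2 in the gene's direction, while the 2 in Ifit3 read on the opposite strand. A match is a description of the letters and not a measured binding site.

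Isg15, Irf7, Bst2 and Ifi27l2a were higher in CL than in saline in other gates too. Ifi27l2a was at 1876 CPM in CL and 551 CPM in saline in regulatory T cells, 1744 and 133 CPM in CL and saline in Cd8 cells, and 754 and 173 CPM in B cells. It was at 2616 CPM in CL and 656 CPM in saline in the myeloid gate, and 2889 CPM in CL and 671 CPM in saline in the stromal gate. Whether free RNA of other cells adds to the members' values was not tested.

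**Figure D4:**
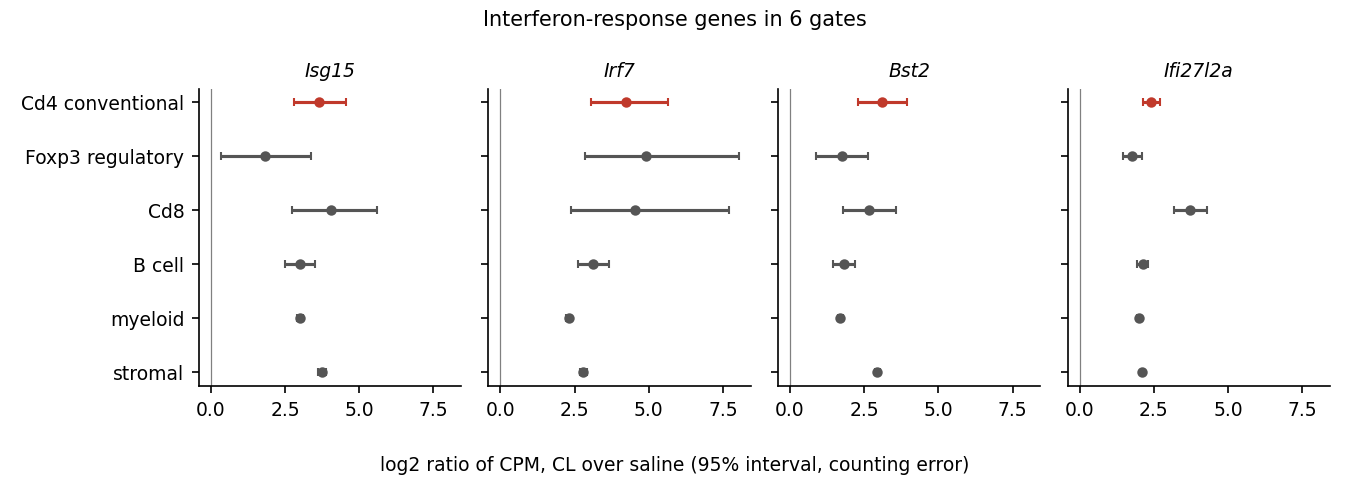
Points give the log2 ratio of CPM, CL over saline, with 95% counting intervals for 4 interferon-response genes in Cd4 conventional T cells (top row) and 5 other gates. Isg15, Irf7, Bst2 and Ifi27l2a lie right of 0 in all 6 gates.

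Effector and memory genes were above 0 in 13 of 17 (median 0.65). S100a4, a calcium-binding protein of memory cells, was at 1342 CPM in CL (22 cells) and 632 CPM in saline (45 cells), a log2 ratio of 1.08. It was 0.86 without barcodes of other lineages and 0.08 with at most 5% mitochondrial UMIs, both short of 2-fold. After thinning S100a4 was seen in 48.6% of members in CL and 28.1% in saline, with overlapping intervals, against 10.1% and 2.2% of the B cell gate. Crip1 was at 1579 CPM in CL and 553 CPM in saline (1.51). Ccl5 was at 790 CPM in CL and 33.9 CPM in saline (4.54), with 64 of 93 UMIs in 3 CL cells. Crem, a cAMP-responsive modulator, was at 306 CPM in CL (16 cells), 247 CPM in cold (64 cells) and 92.6 CPM in saline (27 cells), log2 ratios of 1.72 for CL and 1.42 for cold over saline, and 1.09 for CL without barcodes of other lineages. Cst3, an antigen-presenting cell gene, was at 1460 CPM in CL and 203 CPM in saline, but 3 cells held 152 of 172 UMIs in CL, and its log2 ratio of 2.85 became -0.03 without barcodes of other lineages.

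Naive and central memory genes were below 0 in 10 of 14 (median -0.42), and without barcodes of other lineages the median was -0.18 with 5 of 14 above 0. Ms4a4b of this list was higher past 2-fold, at 552 CPM in CL and 269 CPM in saline (log2 ratio 1.04, interval 0.58 to 1.49). Tcf7 was at 102 CPM in CL (7 of 35 cells) and 282 CPM in saline (58 of 114 cells), a log2 ratio of -1.47 (interval -2.46 to -0.61), and Lef1 at 51.0 CPM in CL and 142 CPM in saline (-1.48). Klf2 was at 323 CPM in CL and 382 CPM in saline, an interval of -0.79 to 0.27. Hspa1a was at 67.9 CPM in CL (5 cells) and 628 CPM in saline, a log2 ratio of -3.21 (interval -4.43 to -2.21), and 9 of 11 heat shock genes were below 0 (median -0.59). Tnfsf8 had 2 UMIs in CL and 52 in saline (log2 ratio -2.79, interval -5.87 to -0.86), and Nsg2 had 1 UMI in CL and 50 in saline (-3.73, interval -9.06 to -1.19). Fam193a, Hspa4l and Zfp871 had no UMI in CL, against 33, 30 and 30 UMIs in saline; with 3 counts in place of 0 their log2 ratios were -1.55, -1.41 and -1.41. Without barcodes of other lineages, the values for Hspa4l and Zfp871 were -0.97 and -0.85.

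Members of both treated libraries had low Hspa1a, and differed in interferon-response genes, which were higher in CL. Among those lower in CL by at least 2-fold were Tnfsf8, Trac, 3 of 7 tested follicular helper genes and 6 of 16 tested S phase genes. Among 1877 tested genes 25 were higher by at least 2-fold (1.33%) and 276 lower (14.7%, of which 142 had an interval below 0), or 25 and 16 of 527 with 1 minimum CPM in both directions. The median log2 ratio was -0.06 over 6347 measured genes and -0.37 over the tested genes. These ratios share the cold and CL libraries with the comparisons above and are not independent of them.

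The type I interferon list had 12 of 12 above 0 (median 2.29) and the interferon gamma list 12 of 12 (median 1.15). Without barcodes of other lineages the medians were 1.25 and 1.12. Ifi27l2a was at 2225 CPM in CL and 432 CPM in cold (log2 ratio 2.37, interval 2.11 to 2.62), and Epsti1, an interferon-induced gene, at 280 CPM in CL and 78.8 CPM in cold (1.83, and 0.98 without those barcodes). Isg15 was at 450 CPM in CL and 96.7 CPM in cold (2.22), which was 1.07 without barcodes of other lineages. Klf2 was at 323 CPM in CL and 141 CPM in cold (1.19), and Klf6 at 348 CPM in CL and 165 CPM in cold (1.08).

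Tnfsf8 had 2 UMIs in CL and 209 in cold (log2 ratio -4.46, interval -7.52 to -2.59). Tcf7 was at 102 CPM in CL and 242 CPM in cold (-1.25, interval -2.23 to -0.40; -0.99 without barcodes of other lineages). All 10 follicular helper genes (median -0.74), all 12 T cell receptor signalling genes (median -0.40) and all 11 glycolysis genes (median -0.59) were below 0, the T cell receptor median lying close to that of all tested genes. Those lower by at least 2-fold were 3 of 7 tested follicular helper genes (Pdcd1, Tox2, Sh2d1a), 3 of 12 T cell receptor signalling genes (Cd247, Trac, Fyn) and 2 of 8 glycolysis genes (Eno1, Pgam1). Without barcodes of other lineages the medians were -0.68 for follicular helper genes with 1 of 10 above 0, -0.29 for T cell receptor signalling genes with 2 of 12 above 0, and -0.43 for glycolysis genes with 0 of 11 above 0, and Sh2d1a was at -0.90. Trac was at 280 CPM in CL and 593 CPM in cold (-1.08, interval -1.64 to -0.56). Of 19 S phase genes, 18 were below 0 (median -0.80), and 6 of 16 tested were lower by at least 2-fold. The median was -0.20 among cells without Mki67 or Top2a, and -0.43 with 7 of 19 above 0 without barcodes of other lineages. Rora, an orphan nuclear receptor of tissue lymphocytes, was at 212 CPM in CL and 459 CPM in cold (-1.11, and -0.99 without those barcodes). Median depth per cell was 2035 UMIs in CL and 3469.5 in cold, and the part of that difference in these values was not tested.

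**Figure D5:**
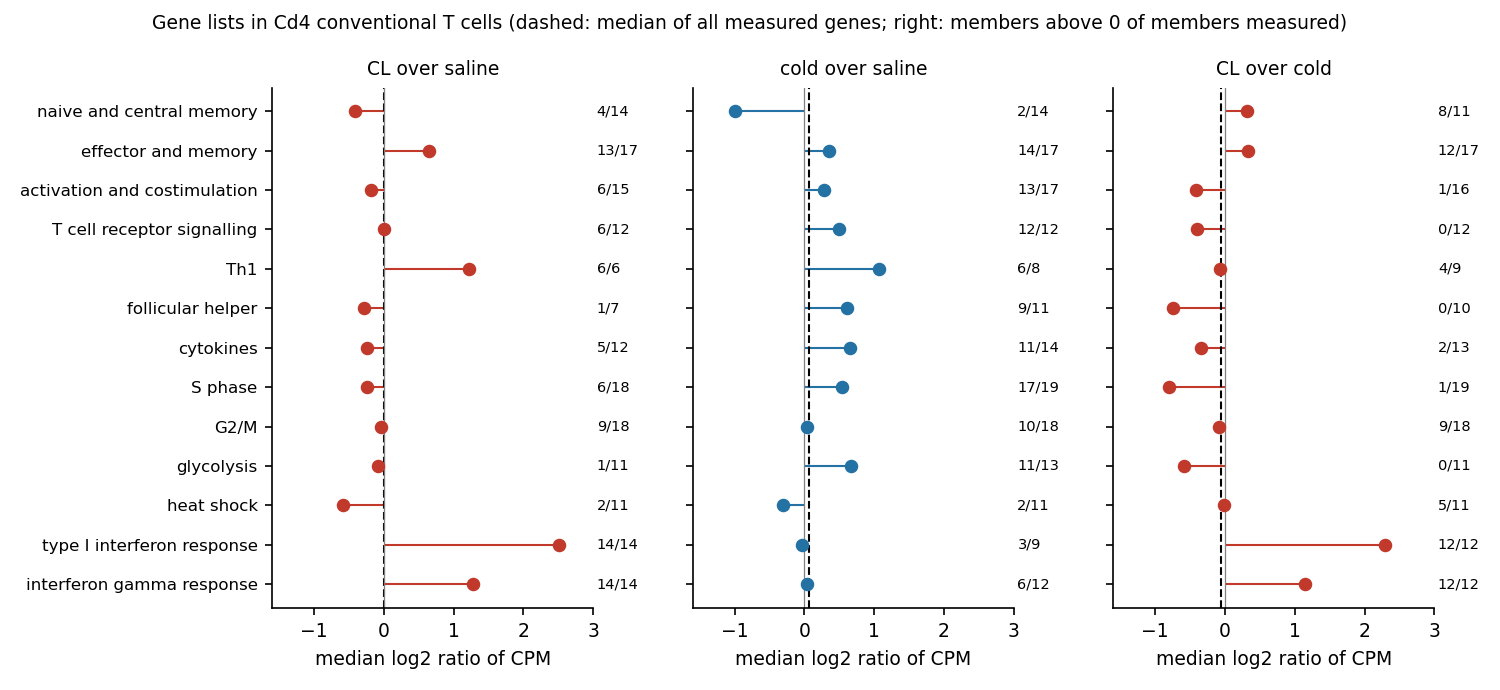
Points give the median log2 ratio of CPM over the measured members of 13 gene lists in CL over saline, cold over saline and CL over cold, with the median of all measured genes dashed (0.00, 0.06 and -0.06) and the members above 0 at right. The type I interferon list stands at 2.52 in CL over saline and -0.04 in cold over saline, and the naive list at -0.42 in CL over saline and -0.99 in cold over saline.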

How the data were processed

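Of each treatment 1 library was analysed. Per the file headers, the authors deposited raw UMI counts per gene and barcode made with Cell Ranger 3.0.2, and the genome build was mm10 per the submitters' processing notes; free RNA was not subtracted here. Near-identical copies such as Trbc1 and Trbc2, or Bcl2a1b and Bcl2a1d, may share reads.

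The members, lists and tests were chosen with earlier results of these data known. For each library the members' UMIs were added up and scaled to CPM, with exact Poisson intervals; ratios have exact conditional binomial intervals, and 3 counts stood for a library at 0. Lists were read over members with 10 or more UMIs in the libraries compared. Cells were thinned by drawing 1000 UMIs without replacement (seed 1). Doublets were not removed: Scrublet in scanpy 1.11.5 gave a score over 0.2 to 1 member in CL, 0 in cold and 5 in saline, and marked 0.388% of cold barcodes, so doublets may remain. Sums per library and gate were tested with edgeR 4.0.16 (filterByExpr, TMM factors, quasi-likelihood test, Benjamini-Hochberg adjustment over all genes, threshold 0.05). DESeq2 1.42.0 served as an alternative. Genes the gates used stayed in the fit and the adjustment, over 4009 genes against regulatory T cells and 2929 against Cd8 cells. Their p-values, which the gates shaped, therefore entered the adjusted p of other genes. The gates' genes were left out of the counts only. The library block pairs gates of the same library and the 3 libraries are its replicates, which differ in treatment. Both steps were run on simulated data. For the ratios these were Poisson counts, so genes with most of their UMIs in a few cells were not covered. Genes were named as members of the gate and lists, as the 8 highest and 8 lowest per comparison by the interval bound nearer 0 (among genes past the UMI and cell minimum, at 0.25 or more of the level in the B, myeloid and stromal gates, without mitochondrial, ribosomal, haemoglobin, receptor variable, immunoglobulin, sex-linked and predicted genes), as up to 6 members per list by UMIs, and as the 10 smallest adjusted p per direction; the text picks from these. Ifit3, Cxcr5, Il21, Tox2, Il17a, Il22, Il4, Il5 and Il13 were added after their values were seen. Coordinates and promoter windows are RefSeq's for GRCm38.p6. Some genes and the results that need them are not reported here.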

Additional observations from a re-analysis of the deposited data

How the results depend on the processing

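With 1 library per treatment and 35 members in CL, counting error limits every value, and the counts of genes past 2-fold followed the filters. With at most 5% mitochondrial UMIs, cold over saline had 40 higher and 8 lower, CL over saline 9 and 16, and CL over cold 2 and 34; members were 16.3% of the T cell gate in CL, and 0.277% of filtered barcodes in CL, 1.72% in cold and 0.782% in saline. Without barcodes over a Scrublet score of 0.2, CL over saline had 23 higher, CL over cold 15 higher and cold over saline 43 lower. Without barcodes with 3 or more UMIs of other lineages these were 15, 6 and 36. Without cells with Mki67 or Top2a, CL over saline had 22 higher and 55 lower, CL over cold 16 and 129, and cold over saline 33 lower. A minimum of 10 UMIs gave 443 higher and 290 lower in cold over saline, 107 and 551 in CL over saline, and 78 and 768 in CL over cold. A minimum of 50 gave 78 and 32 in cold over saline, 22 and 59 in CL over saline, and 126 lower in CL over cold. TMM factors gave 26 higher in CL over saline, and equal weight per cell 260 higher in cold over saline. Chosen after seeing the data, 1 minimum CPM for both directions gave 14 lower in CL over saline and 16 in CL over cold; the gate read after thinning gave 13.7% of the T cell gate in cold and 12.8% in saline, and 0.257% of filtered barcodes in CL, 0.912% in cold and 0.708% in saline. Reversed values were 0.28 for the immediate early median in cold over saline and -0.027 for Cst3 in CL over saline without other lineages, 0.22 for Satb1 and -0.19 for Sh2d1a in cold over saline with at most 5% mitochondrial UMIs, and -0.010 without cycling cells for Ifng over regulatory T cells, which ranged between -0.16 and 8.83 with 1 library left out (-0.16 without cold). Without the library block, which pairs gates of 1 library, 3 genes were higher and 8 lower than in regulatory T cells, and 2 and 5 than in Cd8 cells. Against regulatory T cells, DESeq2 called 4 and 12, no filter on low counts 75 and 84, no high Scrublet scores 54 and 73, no cycling cells 5 and 13, and leaving out 1 library 0 to 71 higher and 0 to 91 lower. Against Cd8 cells they gave 7 and 12, 69 and 69, 4 and 15, 21 lower without cycling cells, and 4 to 91 higher and 9 to 123 lower; total UMIs gave 26 lower. Causes were not tested. Of 948 values of the reported results under the alternatives, 739 kept their direction and side of the threshold or moved by less than their error. That total leaves out the counts of genes and the shares of members. Of the counts of genes under the alternatives, 64 moved and 32 stayed the same, and of the shares of members 9 moved and 21 stayed the same.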
